A study of Mus musculus with 6 samples.

Results

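The sites called as Bapx1 peaks in the vertebral column of E12.5 mouse embryos were compared with those called in NIH3T3 cells, a mouse fibroblast line. The members were the summits of both lists of Bapx1 peaks on the autosomes and outside the Nkx3-2 gene, which encodes Bapx1 itself. They numbered 25757 of the 29744 peaks in the 3 lists of the series, 2801 of them from the embryo list and 22956 from the NIH3T3 list. The remaining Bapx1 peaks lay on chromosome X (14 and 247), on the mitochondrial genome (2 of the NIH3T3 list) or at Nkx3-2 (2 of the NIH3T3 list).

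Chromatin immunoprecipitation followed by sequencing (ChIP-Seq) was available as 1 library per condition, each amplified for 14 rounds. In the embryo, the endogenous gene of CD1 mice carried an S-peptide tag, introduced by homologous recombination, and the control was the S-peptide antibody (Bethyl) on vertebral column of wild type E12.5 embryos of the same strain. By the methods and text of the study, the tag was N-terminal and joined to a calmodulin binding peptide, mice homozygous for it were made, and vertebral columns of many embryos were pooled for each library. In NIH3T3 cells, a V5-tagged Bapx1 cDNA in the pcDNA6 vector was overexpressed and pulled down with a V5 antibody (Abcam). The labels describe the V5 control both as cells with the empty vector and as wild type cells, and the titles call both controls input although their descriptions name an antibody. The protein, its tag, its antibody, its dose, the cells and the sequencing depth thus all changed together between the 2 settings, and their parts in any difference cannot be told apart. The identity of the tissue could not be checked on marker genes, since the libraries hold no transcript levels.

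Bapx1 (Nkx3.2) is a homeodomain protein of the NK family that acts mainly as a transcriptional repressor. It is expressed in the sclerotome, the part of the somite that forms the vertebrae, where it lies downstream of sonic hedgehog signalling and promotes the chondrogenic programme. Proteins of this family recognise a short core sequence, known for Bapx1 as TGAGTG or TAAGTG, here called the G form and the A form.

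The sequences below are examples of both forms at sites described further on. R1, R2 and R5 are oligonucleotides of regions that the study chose from the embryo list for gel-shift and luciferase assays. Mlana, U3 and Msl1 are the nearest genes of sites with a peak in both lists. Wwp2 names an embryo site in an intron of that gene, Cdh23, Akap12 and Fat3 name intronic sites of the NIH3T3 list with some of the smallest p, and Gm15551 and Pld1 name sites of 1 list that held ChIP tags in the other setting with no summit of the other list within 250 bp. All are on mm9, are written 5′ to 3′ on the strand of the central motif, and show copies of either form on that strand in capitals.
R1, chr15:83509195-83509230, minus strand: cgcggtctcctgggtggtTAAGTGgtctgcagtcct
R2, chr8:86628855-86628890, minus strand: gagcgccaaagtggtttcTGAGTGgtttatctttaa
R5, chr11:113055628-113055663, minus strand: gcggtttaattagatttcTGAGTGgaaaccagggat
Mlana, chr19:29755293-29755334, minus strand: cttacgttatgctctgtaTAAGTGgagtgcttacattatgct
U3, chr11:87257112-87257153, minus strand: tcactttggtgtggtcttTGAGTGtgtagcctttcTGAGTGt
Msl1, chr11:98650344-98650385, plus strand: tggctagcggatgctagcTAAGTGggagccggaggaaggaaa
Wwp2, chr8:109989201-109989242, minus strand: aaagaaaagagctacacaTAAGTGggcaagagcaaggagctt
Cdh23, chr10:60157383-60157424, minus strand: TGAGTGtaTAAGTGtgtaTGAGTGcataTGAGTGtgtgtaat
Akap12, chr10:6031598-6031639, plus strand: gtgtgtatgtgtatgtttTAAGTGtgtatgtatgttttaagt
Fat3, chr9:15922251-15922292, minus strand: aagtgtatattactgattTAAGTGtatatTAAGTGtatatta
Gm15551, chr3:126396284-126396325, minus strand: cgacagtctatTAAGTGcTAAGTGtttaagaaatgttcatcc
Pld1, chr3:27882885-27882926, plus strand: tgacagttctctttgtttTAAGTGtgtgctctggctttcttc

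Tags were counted within 250 bp of a summit, at most 1 per position and strand. Occupancy is the ratio of ChIP to control tags after scaling each library to its autosomal tags, which numbered 23980892 and 19933017 for ChIP and control in the vertebral column and 8667435 and 12134834 in NIH3T3. A mean window of 501 bp held 5.02 and 4.17 tags in the vertebral column and 1.81 and 2.54 tags in NIH3T3, so that single sites were measured less precisely in the cell line. All intervals are exact binomial (Clopper-Pearson) at 95%, except those of ratios of occupancies, which are Wald intervals on the log scale. They cover counting error only, and no p was computed, since 1 library per condition gives no spread between samples.

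The lists shared a small part of their sites. Of the embryo list, 151 summits lay within 250 bp of an NIH3T3 summit, which was 5.39% of the embryo list and 0.658% of the NIH3T3 list. Of the centres of all 500-bp windows of the autosomes, 0.48% lay as close to an NIH3T3 summit, and of the starts of protein-coding transcripts 2.83%. Between peaks with a p of at most 1e-10 in both lists, the overlap was 15 of 658 embryo sites (2.28%), beside 0.104% of all windows for the 4976 NIH3T3 summits of that list. Shared sites and sites without a peak of the other list are defined here by this distance between summits. Of the 2650 embryo sites without an NIH3T3 summit so near, 30 had a peak that overlapped an NIH3T3 peak. The authors' false discovery rate, for which MACS swaps ChIP and control, had a median of 61.09% in the embryo list and of 0.58% in the NIH3T3 list. A rate of at most 5% was reached by 0 of the 2815 embryo peaks and by 22672 of the 23207 NIH3T3 peaks. Within 1000 bp, 237 embryo summits (8.46%) had an NIH3T3 summit, and within 10000 bp, 682 did (24.3%). The shares of all windows were 1.88% and 16.4%, and those of protein-coding starts 7.96% and 26.8%.

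Counting the tags of all sites, with or without a peak in the other setting, showed an asymmetry. The embryo list had an occupancy of 3.52 (3.47 to 3.58) in the vertebral column, on whose tags it was called. The same sites held 1.63-fold more ChIP than control tags in NIH3T3 (1.59 to 1.67). In the other direction, the NIH3T3 list had an occupancy of 6.28 (6.23 to 6.32) in NIH3T3, and of 1.11 (1.10 to 1.12) in the vertebral column. The occupancy of the embryo list was 2.16-fold higher in its own setting (2.10 to 2.23), and that of the NIH3T3 list was 5.67-fold higher in its own (5.61 to 5.73). Each list was called on the tags of its own setting, which largely fixes the direction of these ratios. Without the shared sites, occupancy in the other setting was 1.39 for the embryo list and 1.09 for the NIH3T3 list.

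**Figure D1:**
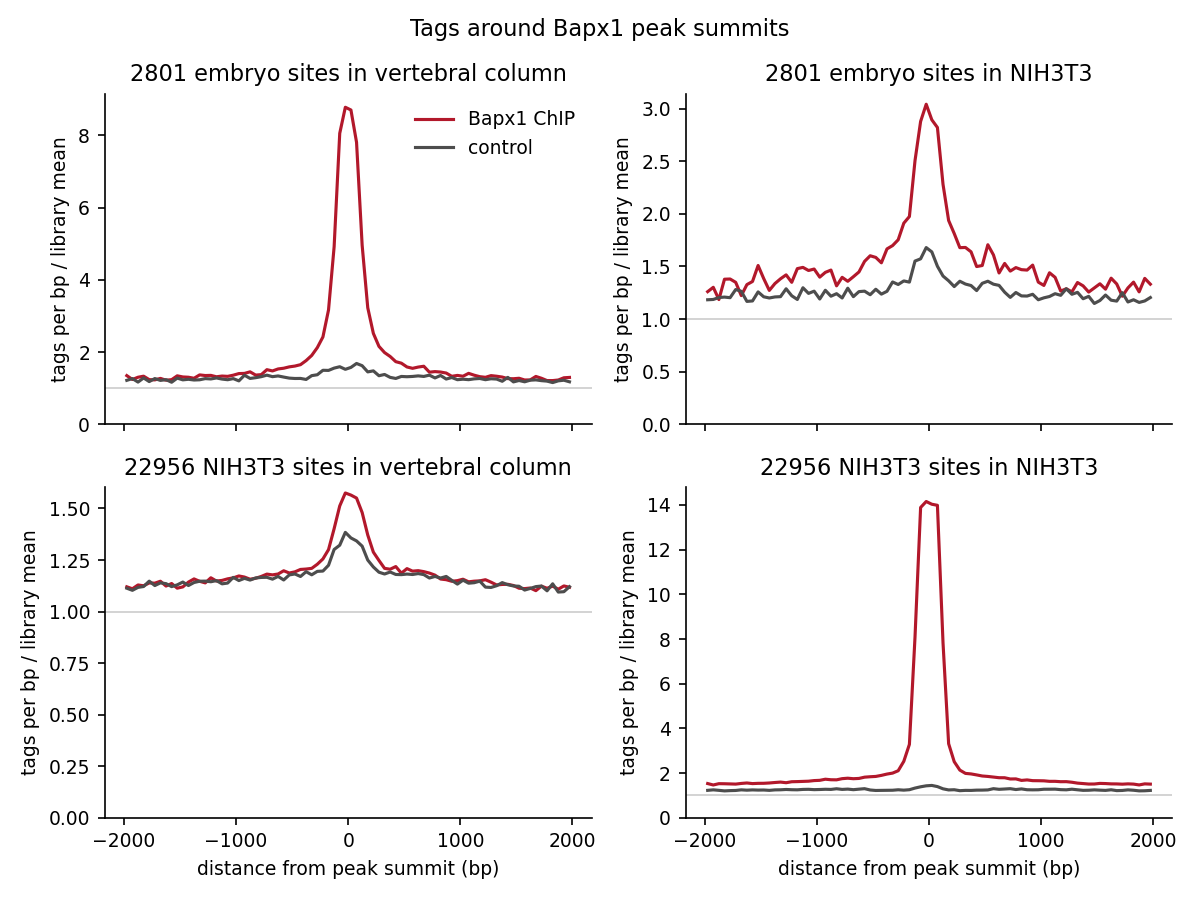
Tags per bp divided by the mean of each library over the autosomes (vertical axis) in bins of 50 bp against the distance from the summit in bp (horizontal axis), for the ChIP library (red) and its control (grey), with a scale of its own in each panel. The ChIP rose to 8.78 at embryo summits in the vertebral column and to 3.04 at the same sites in NIH3T3, while at NIH3T3 summits it reached 14.2 in NIH3T3 and 1.58 in the vertebral column, where the control reached 1.38.

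The plot of tags around the summits shows that the signal of the embryo sites in NIH3T3 was highest at the summits. The controls were also raised there, to 1.68 times the mean of the library in NIH3T3 at embryo summits and to 1.38 times in the vertebral column at NIH3T3 summits. In windows centred 1500 bp away the occupancy in NIH3T3 of embryo sites without an NIH3T3 peak was 1.07 (1.05 to 1.10), against 1.39 (1.35 to 1.43) at their summits, a ratio of 1.29 (1.25 to 1.34). At the 2620 of them whose peaks overlapped no NIH3T3 peak, it was 1.35 (1.32 to 1.39) at the summits. For NIH3T3 sites without an embryo peak, occupancy in the vertebral column was 1.0 (0.995 to 1.01) at 1500 bp and 1.09 (1.08 to 1.09) at the summits, a ratio of 1.09 (1.08 to 1.10). Windows of 500 bp that held a tag of each control and lay far from all summits of both lists had occupancies of 0.979 in the vertebral column and 0.874 in NIH3T3. Windows without a control tag were left out of these values, which lowers them. Counted without that filter, 83.6% of ChIP and 88.3% of control tags on the autosomes lay over 5000 bp from any summit in NIH3T3. In the vertebral column these shares were 88.8% and 89.1%.

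Site by site, a fold of at least 2 with a lower bound above 1 was counted as past the fold rule. Shares of all windows past this rule are, here and below, of the 500-bp windows of the autosomes that held a tag of each control. In NIH3T3, 356 embryo sites (12.7%) were past the rule, beside 1.52% of these windows. Of the 356 sites, 145 were among the 151 shared sites and 211 among the 2650 others (7.96%). In the vertebral column, 556 NIH3T3 sites (2.42%) were past it, beside 0.78% of the same windows, and 427 of the 22805 without an embryo peak (1.87%). When all libraries were thinned at random to the depth of the shallowest, the shares were 9.64% beside 1.07% of all windows for the embryo sites, and 0.954% beside 0.327% for the NIH3T3 sites. With tags taken at even steps instead, they were 9.32% beside 0.953% and 0.248% beside 0.0233%. Even steps along the genome make thinned counts vary less than the binomial bound of the rule assumes. In their own settings, where the peaks were called, 81.6% of the embryo list and 94.4% of the NIH3T3 list were past the rule.

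The shared sites have a called peak in both settings by definition, so their occupancies are a description. Occupancy at the 151 embryo summits was 3.41 (3.20 to 3.64) in the vertebral column, close to that of the other embryo sites (3.53, 3.47 to 3.59), and 5.79 (5.29 to 6.35) in NIH3T3. They lay near genes' starts more often than the rest, with 60.3% (91) within 5 kb of a transcription start site (TSS) beside 25.4% (672) of the other embryo sites. Their median GC content was 53.1%, against 47.1% at the other embryo sites and 40.5% at NIH3T3 sites without an embryo peak.

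Among the shared sites, the pair with the smallest p for its weaker peak was intergenic, 17098 bp upstream of Mlana, which encodes a melanosome protein (embryo peak chr19:29755007-29755609). It held 99 ChIP and 5 control tags in the vertebral column and 50 and 3 in NIH3T3, folds of 16.5 (6.82 to 51.8) and 23.3 (7.54 to 117). The Mlana summits were 71 bp apart, and 6 copies of the motif lay within 250 bp. The next site, in an exon of Cdca3 59 bp from its TSS (chr6:124779414-124779831), had 57 and 5 tags in the vertebral column and 19 and 0 in NIH3T3. Cdca3 is a cell cycle gene. A site in an intron of Tex14 (chr11:87256918-87257320), whose nearest start is that of a U3 RNA, held 64 and 17 tags in the vertebral column and 29 and 2 in NIH3T3. The site 6500 bp upstream of Msl1, a subunit of a histone acetyltransferase complex (chr11:98650126-98650528), held 42 and 11 tags and 31 and 3 tags. These 4 were chosen for their peaks in both settings, so that an excess over the control in both was fixed by the choice.

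Position relative to the TSS went with the residual signal of embryo sites in NIH3T3. Of the embryo sites without an NIH3T3 peak, those within 5 kb of a TSS had an occupancy of 1.88 (1.79 to 1.98) in NIH3T3 and the 1978 farther away one of 1.20 (1.15 to 1.24), a ratio of 1.58 (1.48 to 1.67). The order was the opposite in the vertebral column, with 3.28 (3.18 to 3.39) near a TSS and 3.63 (3.56 to 3.70) farther away. The starts of protein-coding transcripts with no summit within 5 kb had an occupancy of 1.23 (1.22 to 1.24) in NIH3T3 and of 1.02 (1.02 to 1.03) in the vertebral column. The embryo sites near a TSS exceeded these starts 1.53-fold in NIH3T3 (1.45 to 1.61). The 2 sides were not filtered alike, since the embryo sites lacked an NIH3T3 summit only within 250 bp. Of all 2650 embryo sites without an NIH3T3 peak, 86 had an NIH3T3 summit within 1000 bp. Part of the excess can thus come from the filter.

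GC content moved with the position, and its part in the difference was not tested. At 50% to 60% GC, embryo sites without an NIH3T3 peak had an occupancy in NIH3T3 of 2.15 (1.99 to 2.33) near a TSS and 1.25 (1.17 to 1.34) farther away. At 40% to 50% GC the values were 1.44 (1.31 to 1.58) and 1.17 (1.12 to 1.22). Below 40% GC only 36 sites lay near a TSS, and their occupancy of 1.18 (0.906 to 1.54) was not distinguishable from the 1.20 (1.09 to 1.32) of the sites farther away. Starts without a peak had 1.31 at 50% to 60% GC and 1.05 at 40% to 50%. Values at 60% GC or more are not given here.

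**Figure D2:**
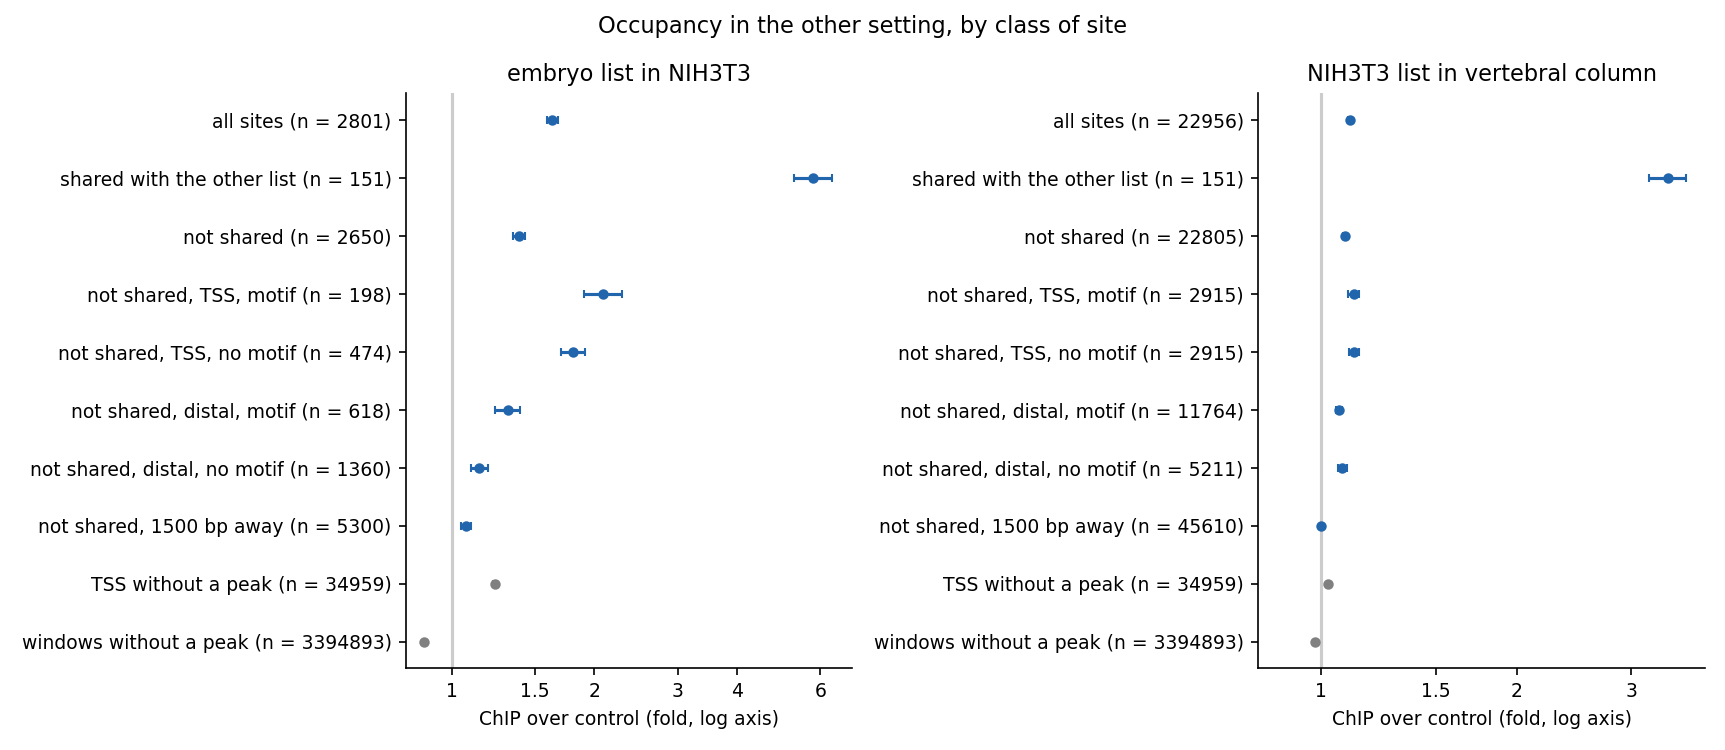
Occupancy as ChIP over control on a log axis (horizontal) of classes of sites (vertical, with the number of windows), for the embryo list in NIH3T3 on the left and the NIH3T3 list in the vertebral column on the right. Points are ratios of summed tags with exact 95% intervals, TSS means within 5 kb of a transcription start site and distal farther away, and grey points are windows without a peak. The plotted classes of embryo sites without an NIH3T3 peak ranged from 1.14 to 2.09 in NIH3T3 at their summits, and the plotted classes of NIH3T3 sites without an embryo peak did not exceed 1.12 in the vertebral column.

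The NIH3T3 sites showed little of this. Without an embryo peak, the 5830 sites within 5 kb of a TSS had an occupancy in the vertebral column of 1.12 (1.11 to 1.14), and the 16975 farther away one of 1.07 (1.06 to 1.08). The presence of the motif made no detectable difference in the vertebral column, with ratios of 1.0 (0.97 to 1.03) near a TSS and 0.99 (0.97 to 1.01) farther away, whereas in NIH3T3, where the list was called, sites with the motif were the higher. Over 5 equal bins of the list by p, occupancy fell from 8.88 to 4.57 in NIH3T3 and lay between 1.09 and 1.12 in the vertebral column. The 100 NIH3T3 sites with the smallest p and no embryo peak had an occupancy of 14.4 (13.4 to 15.5) in NIH3T3 and 1.23 (1.12 to 1.36) in the vertebral column, above the 1.09 of all NIH3T3 sites without an embryo peak.

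Over the 5 bins of the embryo list by p, occupancy fell from 5.46 to 2.67 in the vertebral column, while in NIH3T3 it was 1.80, 1.82, 1.59, 1.4 and 1.57. The intervals of the first pair of bins in NIH3T3 (1.70 to 1.91 and 1.72 to 1.93) lay above those of the last pair (1.32 to 1.48 and 1.48 to 1.67). Without the shared sites, whose NIH3T3 peak fixes their signal there, the values were 1.44 (1.35 to 1.54), 1.48 (1.39 to 1.58), 1.4 (1.32 to 1.49), 1.25 (1.18 to 1.33) and 1.37 (1.28 to 1.46), and the first and last pairs were no longer separate. The 100 embryo sites with the smallest p and no NIH3T3 peak had 8.07 (7.46 to 8.74) in the vertebral column and 1.54 (1.33 to 1.79) in NIH3T3.

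**Figure D3:**
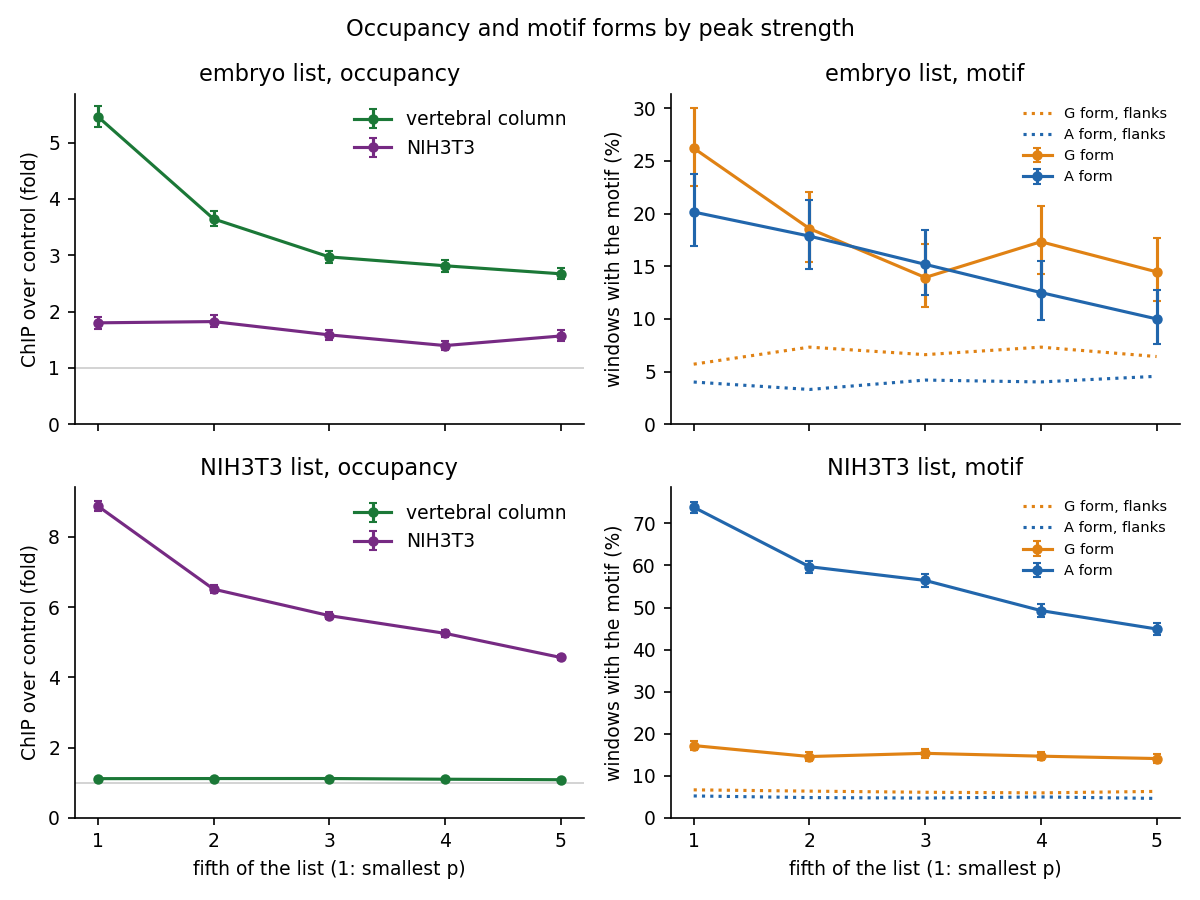
Left, occupancy as ChIP over control (vertical) in each setting against the bin of the list when ordered by the authors' p (horizontal, 5 equal bins, 1 is the smallest p), with exact 95% intervals. Right, the percent of windows within 50 bp of a summit that hold the G form (TGAGTG) or the A form (TAAGTG), with exact 95% intervals, and dotted lines for flanking windows. Over the bins, occupancy in the other setting lies between 1.09 and 1.12 for the NIH3T3 list and between 1.4 and 1.82 for the embryo list, and the A form reaches 73.9% in bin 1 of the NIH3T3 list against 20.1% in that of the embryo list.

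The lists differed in the form of the motif. Letters were searched on both strands within 50 bp of the summits, and flanking windows of the same length lay 500 bp away. In the NIH3T3 list 56.8% of windows (13046) held the A form, beside 4.86% of flanks, and 15.2% (3482) held the G form, beside 6.26%. In the embryo list the shares were 15.1% (424) for the A form, beside 4.02%, and 18.1% (507) for the G form, beside 6.68%. Of all autosomal windows of this length sampled every 500 bp, 4.85% held the A form, 6.31% the G form and 10.8% either. Either form was found at 64.2% of NIH3T3 sites and 31.2% of embryo sites.

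Among the 1000 peaks with the smallest p, 84.9% (82.5% to 87.1%) held the A form in the NIH3T3 list and 19.6% (17.2% to 22.2%) in the embryo list, where 22.6% held the G form. At the shared sites, seen from the embryo summits, 24.5% (17.9% to 32.2%) held the A form and 18.5% the G form. The base before the A form differed as well. In the NIH3T3 list a T stood before 53.9% of the 17571 copies, as in the Akap12, Fat3 and Pld1 sequences above, and a C before 15.2%. In the embryo list a T stood before 33.1% of the 438 copies and a C before 37.9%.

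The form of the motif also went with the signal of embryo sites in NIH3T3, a measurement that did not enter the embryo list. Of the embryo sites farther than 5 kb from a TSS and without an NIH3T3 peak, the 242 with the A form only had an occupancy in NIH3T3 of 1.49 (1.36 to 1.64) and the 337 with the G form only one of 1.14 (1.05 to 1.24), a ratio of 1.31 (1.15 to 1.48). The 1360 such sites with neither form were at 1.14 (1.10 to 1.19). Embryo sites whose peaks overlap an NIH3T3 peak were not removed from these classes, and the ratio without them was not computed. In the vertebral column the A form and G form sites did not differ detectably, at 3.83 (3.62 to 4.05) and 3.85 (3.67 to 4.04), with a ratio of 1.0 (0.93 to 1.07). Near a TSS the ratio in NIH3T3 was 0.94 (0.78 to 1.13), so that no difference was detectable there. Among NIH3T3 sites without an embryo peak, occupancy in the vertebral column was 1.08 (1.06 to 1.09) with the A form only and 1.11 (1.08 to 1.13) with the G form only.

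Sequences of other factors also separated the lists. CAGCTG, an E box that basic helix-loop-helix proteins bind, occurred at 11.1% (310) of embryo summits, beside 4.37% of flanks and 3.74% of all windows, and at 3.45% of NIH3T3 summits, beside 3.79% of flanks. TGAGTCA, the AP-1 site of Fos and Jun proteins, occurred at 5.87% (1348) of NIH3T3 summits, beside 1.86% of flanks and 1.55% of all windows, and at 1.86% of embryo summits, equal to their flanks. GGGCGG, an Sp box of promoters, occurred at 18.5% (28; 12.7% to 25.7%) of the shared sites, beside 7.62% of flanks. At embryo sites without an NIH3T3 peak it occurred at 5.06%, beside 2.57%. Of the latter, 13.7% of those within 5 kb of a TSS held it, beside 5.65% of flanks. Farther away the share was 2.12%, beside 1.52%. Shared sites lay near a TSS more often, and the part of position in this difference was not tested. Embryo sites with CAGCTG and no NIH3T3 peak had an occupancy of 1.31 (1.20 to 1.43) in NIH3T3, not distinguishable from the 1.4 (1.35 to 1.44) of those without. The 49 embryo sites with TGAGTCA and no NIH3T3 peak had 1.81 (1.5 to 2.18) in NIH3T3, against 1.38 (1.34 to 1.42) without it. A match of letters is a description and not a site of binding.

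At single sites with the smallest p the settings were far apart. The leading sites of both lists, here and below, were chosen by the p of their own setting. That choice largely fixes the direction of the difference. The leading NIH3T3 site, in an intron of Cdh23, a cadherin of inner ear hair cells (chr10:60157075-60157996), had 34 copies of the motif within 250 bp. It held 223 ChIP and 10 control tags in NIH3T3, a fold of 31.2 (16.7 to 66.0), and 27 and 17 in the vertebral column, a fold of 1.32 (0.694 to 2.58). In an intron of Akap12, a scaffold of protein kinase A (chr10:6031085-6032039), the counts were 147 and 5 in NIH3T3 and 7 and 5 in the vertebral column. At Fat3, an atypical cadherin (chr9:15922091-15922661), they were 140 and 5 against 4 and 3, and at Nepn (chr10:52121606-52122591) 115 and 6 against 13 and 13. None of the 4 intervals lay above 1 in the vertebral column.

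The embryo sites with the smallest p held few tags in NIH3T3. The leading site, in an intron of 1300002E11Rik (chr16:21796724-21797853), held 127 ChIP and 8 control tags in the vertebral column and 4 and 2 in NIH3T3. An intergenic site nearest to AC122337.1 (chr12:37520209-37520833) had 167 and 11, against 7 and 2. A site in an intron of 1600002D24Rik, nearest to 2810404F17Rik (chr16:96069773-96070831) had 142 and 8, against 3 and 2, and one 15654 bp from the TSS of Tubb3, a neuronal tubulin (chr8:125950187-125952651), had 88 and 17, against 0 and 0. With so few tags in NIH3T3, the interval of each fold there included 1 where one could be given, from 0.401 to 31.0 at the first site, and a difference from the control was not detectable at this depth. None of the 4 held the motif within 50 bp of its summit. The authors' false discovery rate of these 4 peaks was 100%, 50%, 33.33% and 25% in this order. It was 0% at the 4 leading NIH3T3 sites above.

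Of the embryo sites without an NIH3T3 peak, the 4 with the highest lower bound in NIH3T3, a choice that fixes their excess there, were an intergenic site 8311 bp from Zfp78 (chr7:6315555-6315939; 21 ChIP and 1 control tags), an intron of Camk2d, a calmodulin-dependent kinase, nearest to Gm15551 (chr3:126396111-126396537; 13 and 0), an exon of Zfp622 10 bp from its TSS (chr15:25913878-25914315; 12 and 0) and a site nearest to Gm7731 (chr16:15195438-15195793; 11 and 0). The NIH3T3 list had a summit 595 bp from the first and 449 bp from the second, just outside the limit of 250 bp, but none within 10000 bp of the others. These sites held, in the vertebral column, 29 and 2, 35 and 1, 32 and 8, and 27 and 8 tags.

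In the other direction, 4 NIH3T3 sites without an embryo peak were chosen likewise for their lower bound in the vertebral column. The site 347 bp upstream of Map3k3, a kinase of the MAP kinase cascade (chr11:105945242-105946014), held 70 and 5 tags in the vertebral column and 27 and 7 in NIH3T3. Its nearest embryo summit was 262 bp away, so that it missed the shared class narrowly. The next sites were at Upp1, a uridine phosphorylase (13 and 0 tags in the vertebral column, 12 and 4 in NIH3T3), at Pld1, a phospholipase D (19 and 1, 11 and 2), and in an intron of Atp11a, a phospholipid flippase (12 and 0, 15 and 3). No embryo summit lay within 10000 bp of these 3, and all 3 lay within 5 kb of the TSS.

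Of the regions that the study took from the embryo list for gel-shift and luciferase assays, 6 are described here, and they differed in NIH3T3. They held, in the vertebral column, 26 to 41 ChIP and 4 to 9 control tags, with folds of 2.77 to 6.44. In NIH3T3, R2, 210 bp from the TSS of Dcaf15 (chr8:86628822-86628921), had 14 and 5 tags, a fold of 3.92 (1.33 to 13.9). R7, 129 bp from that of Cyb5r3 (chr15:83002712-83002811), had 13 and 5 tags, a fold of 3.64 (1.22 to 13.0), with an NIH3T3 summit 503 bp away. R3, with 5 and 1 tags, could not be told from the control.

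The other 3 held no more ChIP than control tags in NIH3T3. R1 (chr15:83509181-83509280), whose centre lay 274 bp from the embryo summit, had 1 and 6 tags, R4 in the Synj2 region (chr17:5960252-5960351) had 2 and 4, and R5 near 2610035D17Rik (chr11:113055616-113055715) had 2 and 6. In the vertebral column R1 had 40 and 7 tags, R4 had 32 and 9, and R5 had 26 and 5. By the study, both assays used V5-tagged Bapx1 overexpressed in NIH3T3 cells, and only part of the regions entered the gel-shift assay. It reports that those bound Bapx1 in vitro and that most of its regions drove the luciferase reporter.

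**Figure D4:**
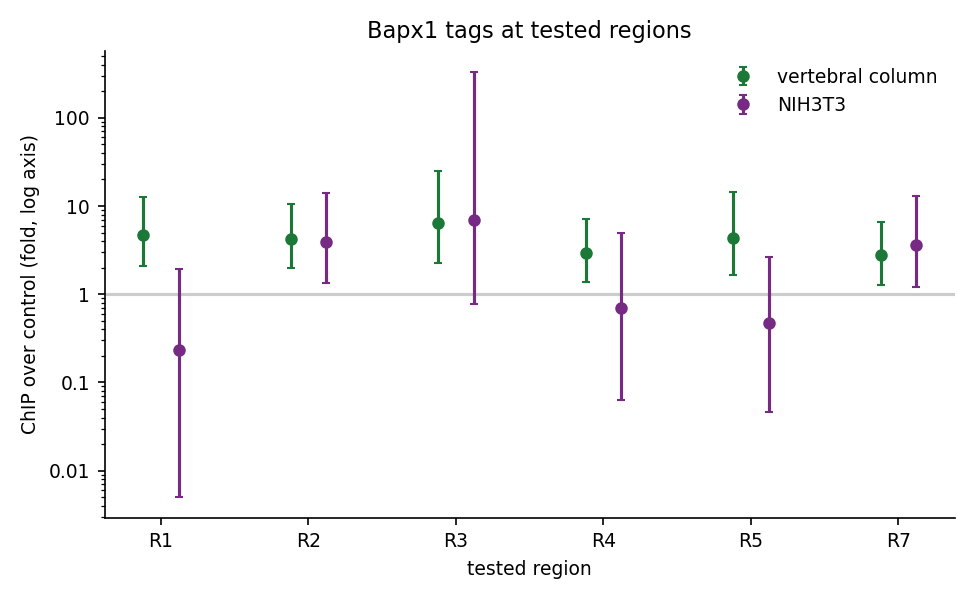
ChIP over control on a log axis (vertical) at 6 regions of the gel-shift and luciferase assays (horizontal) in the vertebral column (green) and in NIH3T3 (purple), with exact 95% intervals of the counts within 250 bp of each region's centre. The intervals shown for the vertebral column lie above 1, and those for NIH3T3 range from wholly above 1 at R2 and R7 to 0.00507 to 1.92 at R1.

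Genes of cartilage and of fibroblasts were then compared by their sites within 100 kb of a TSS. The longer NIH3T3 list had sites near most genes of every group. Of 32 genes of cartilage and sclerotome, 15 had an embryo site and 31 an NIH3T3 site. Of 23 genes of fibroblast and connective tissue matrix, 4 had an embryo site and 20 an NIH3T3 site. Of 33 genes of the hedgehog, BMP and Wnt pathways, 21 had an embryo site and 29 an NIH3T3 site. Of 23 genes that the study named as Bapx1 targets, in part from expression profiling and in part with its own ChIP-Seq libraries, so that the list is no independent evidence, 22 were autosomal, 5 of which had an embryo site and 21 an NIH3T3 site. For part of these genes the study counted binding sites in a wider window around the TSS than the 100 kb used here, so that the counts are not comparable with its own. Of all 21281 protein-coding genes of the autosomes, 23.9% had an embryo site and 81.2% an NIH3T3 site, beside 46.9% and 96.9% in the cartilage group, 17.4% and 87.0% in the fibroblast group, 63.6% and 87.9% in the signalling group and 22.7% and 95.5% of the named targets.

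The 21 embryo and 90 NIH3T3 sites of the cartilage group included 2 shared pairs, and the other 3 groups, with 5, 9 and 27 embryo sites, included 0, beside 5.39% of the whole embryo list. The 21 embryo sites of the cartilage group had 1.36 (1.01 to 1.83) in NIH3T3 and 2 past the fold rule, beside 1.63 and 12.7% over all embryo sites and 1.52% of all windows. These 21 include the 2 shared sites, whose NIH3T3 peak fixes their signal there, and the values without them were not computed. The 27 embryo sites of the signalling group had 1.67 (1.29 to 2.15) and 3 past the rule. The 9 embryo sites of the named targets had 0.58 (0.32 to 1.01), below the value of the whole list, and 0 past it. Of these 9, 4 were sites of Wwp2, 2 of Sox5, and 1 each of Uncx, Chad and Alcam. All of these genes but Alcam are also in the cartilage group, so that the 2 groups are not separate. In the vertebral column the NIH3T3 sites had 1.35 (1.20 to 1.51) in the cartilage group, 1.19 (1.06 to 1.35) in the fibroblast group, 1.19 (1.06 to 1.35) for the named targets and 1.10 (0.98 to 1.23) in the signalling group, with 4 of 90, 5 of 75, 3 of 75 and 3 of 89 sites past the rule, beside 2.42% of all NIH3T3 sites and 0.78% of all windows. Over all NIH3T3 sites it was 1.11 (1.10 to 1.12), below the interval of the cartilage group. The 90 sites of that group include 2 with an embryo peak, and the value without them was not computed.

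The leading embryo site of the cartilage group, also that of the named targets, lay in an intron of Wwp2, a ubiquitin ligase expressed in cartilage (chr8:109989069-109989658). It held 33 ChIP and 7 control tags in the vertebral column and 0 and 7 in NIH3T3. Wwp2 had 4 embryo sites and 2 NIH3T3 sites within 100 kb. The leading NIH3T3 site of the group lay 54725 bp from Acan, the large proteoglycan of cartilage (chr7:86143415-86143787), with 29 and 3 tags in NIH3T3 and 6 and 7 in the vertebral column, and Acan had 0 embryo sites. Col2a1, the gene of the main collagen of cartilage, had 1 embryo and 3 NIH3T3 sites. Of the transcription factors that drive chondrogenesis, Sox5 had 2 and 11 and Sox9 had 0 and 2.

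In the fibroblast group the leading embryo site was 2566 bp upstream of Pdgfrb, a receptor of platelet-derived growth factor (chr18:61202068-61202440), with 43 and 7 tags in the vertebral column and 4 and 3 in NIH3T3. The leading NIH3T3 site was 30399 bp upstream of Col3a1, the gene of type III collagen (chr1:45337761-45338328), with 41 and 2 tags in NIH3T3 and 7 and 3 in the vertebral column. For the signalling group the leading embryo site lay in an intron of Sfrp1, a secreted Wnt antagonist (chr8:24535632-24536228; 39 and 5 tags, against 6 and 6 in NIH3T3), and the leading NIH3T3 site 33897 bp from Lrp5, a Wnt coreceptor (chr19:3720196-3720614; 56 and 5 tags, against 12 and 12 in the vertebral column). The leading NIH3T3 site of the named targets lay in an intron of Ntrk3, the receptor of neurotrophin 3 (chr7:85617563-85617850), with 18 and 4 tags in NIH3T3 and 7 and 2 in the vertebral column. None of these sites was distinguishable from its control in the other setting, except that the Wwp2 site held fewer ChIP than control tags in NIH3T3 (upper bound 0.971).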

How the data were processed

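Of 6 ChIP-Seq libraries, the 4 of Bapx1 were used, and the Sox9 pair was not analysed here. The authors deposited the positions of uniquely mapped tags on mm9, 35 bp long, which carry no normalization. Per the file headers, MACS called the peaks per library against its control at a p of 1e-05. For each peak the authors list a tag count and a score of −log10 p multiplied by 10. They also give, as deposited, a ratio to the local background (fold enrichment) and an FDR in percent. Reads were mapped by the authors with the Illumina Genome Analyzer Pipeline, whose version is not given in the sources used here.

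From the tags, 5′ ends were counted in windows of 501 bp (1 per position and strand; 0% of tags repeated a position in the vertebral column, 2.40% and 6.53% in NIH3T3 ChIP and control). Occupancy was scaled to autosomal tags, genes came from GENCODE vM1 on mm9, and each site was named by the nearest TSS, except that the leading site of a gene list is given under the gene of that list. Reference windows lay over 5000 bp from any summit. The 500-bp windows among them, and those counted for the fold rule, held at least 1 tag of each control. The named sites were the 4 of each list with the smallest p, the 4 shared pairs whose weaker peak had the smallest p, the 4 of each list without a peak of the other that had the highest lower bound in the other setting, the assayed regions, of which 1 is not reported here, and the leading site of each gene list. The members, gene lists and motifs were chosen with earlier results of these data known. Ratios and intervals were tested on simulated data. Alternatives were other windows, scalings, tag filters, peak cutoffs and overlap rules. Python 3.11.15, numpy 2.4.6, pandas 2.3.3, scipy 1.17.1 and pysam 0.24.0 were used.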

Additional observations from a re-analysis of the deposited data

Results flagged for a closer look

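Some signal lay in tags that the comparison leaves out. In the exons of Nkx3-2, the NIH3T3 ChIP library held 1821 tags, 251 times the mean of the library per bp, and 12976 with repeated positions kept, while the rest of the gene held 13 tags. The V5 control held 381 tags in the same exons, 37.6 times its mean, and 11 in the rest of the gene, although its labels name an empty vector or wild type cells. In the vertebral column the exons held 44 ChIP and 25 control tags. Chromosome X also carried sites outside the comparison. The 247 NIH3T3 sites there had an occupancy of 10.3 (9.29 to 11.4) in NIH3T3 and 1.0 (0.92 to 1.10) in the vertebral column. The 14 embryo sites there had 2.80 (2.30 to 3.43) in the vertebral column and 2.21 (1.4 to 3.52) in NIH3T3.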

How the results depend on the processing

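No result changed direction, which peak calling largely fixed for each list in its own setting. Of 73 alternative values for 9 results, 39 moved by less than the counting error or, for counts, by less than 1.5 times, and 34 moved by more. The former include values with all tags kept in the vertebral column, which could not move because 0% of its tags repeated a position. In the order embryo list in the vertebral column, embryo list in NIH3T3, NIH3T3 list in the vertebral column, NIH3T3 list in NIH3T3, embryo sites without an NIH3T3 peak in NIH3T3 and NIH3T3 sites without an embryo peak in the vertebral column, occupancy was 5.22, 1.82, 1.15, 9.89, 1.5 and 1.12 within 100 bp, 2.55, 1.45, 1.07, 4.03, 1.29 and 1.05 within 500 bp, and 4.72, 1.83, 1.14, 11.8, 1.48 and 1.11 for the 1000 peaks with the smallest p. At a p of 1e-10 or smaller, the values were 5.28, 1.80 and, for the NIH3T3 list in NIH3T3, 8.79, and 1.43 for embryo sites without an NIH3T3 peak. Scaling to tags over 5000 bp from any summit gave in NIH3T3 1.72 for the embryo list, 6.62 for the NIH3T3 list and 1.46 for embryo sites without an NIH3T3 peak. Scaling to the tags 5000 to 10000 bp from the summits gave 3.46 for the embryo list and 5.73 for the NIH3T3 list, each in its own setting. The latter was 5.61 with all tags kept and 6.54 without sites of high control. With a p of at most 1e-10 in both lists, 15 of 658 embryo sites (2.28%) were shared, beside 0.104% of all windows. At the depth of the shallowest library, the shares past the fold rule were 9.32% of the embryo list in NIH3T3 and 0.248% of the NIH3T3 list in the vertebral column when tags were taken at even steps (0.953% and 0.0233% of all windows), and 9.64% and 0.954% when taken at random (1.07% and 0.327%), an alternative chosen after the data were seen. The causes of these changes were not tested. Counts thinned at even steps vary less than the binomial bound of the fold rule assumes. No paired analysis was possible because each condition had 1 library. Depth limits single sites in NIH3T3 most, and the spread between embryos or cultures is unknown.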
